A study of Mus musculus with 8 samples.

Results

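The transcriptome described here is that of regulatory T cells (Tregs) polarized in culture and left untreated, in the 4 control libraries of a series of 8. A gene counted as expressed when its mean over these 4 libraries was at least 1 CPM (counts per 1000000 counts of the library). Of 53465 genes listed, 11915 (22.3%) met this minimum, and they held 99.8% of all counts. Protein-coding genes made up 10925 of them (91.7%), which is 49.8% of the 21942 protein-coding genes listed. The other 4 libraries, from cells given the fatty acid-binding protein inhibitor BMS309403, were not used.

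The cells came from wild type C57BL/6 mice. CD4+ T cells were taken from spleen and peripheral lymph nodes by magnetic positive selection and stimulated on plates carrying anti-CD3 (5 µg/mL). TGF-β at 5 ng/mL and IL-2 at 100 U/mL were added, anti-CD28 gave costimulation at 0.5 µg/mL, and antibodies blocking IL-4, IL-12 and IFN-γ were each at 10 µg/mL. At 72 h each culture was divided, and the libraries described here are from the share without inhibitor. The labels state no vehicle, no time from this division to RNA extraction, no age or sex, and not whether each replicate is a mouse or a culture of its own, so the spread between replicates may be technical. The starting cells were total CD4+ T cells and no sort for Foxp3 is stated. In such bulk RNA, fewer cells of a type and less RNA per cell cannot be told apart.

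Tregs are CD4+ T cells that restrain other immune cells, and the transcription factor Foxp3 defines them. Naive CD4+ T cells can be turned into Tregs in culture by stimulating the T cell receptor in the presence of TGF-β, which acts through SMAD proteins on the Foxp3 gene, and IL-2, which acts through STAT5. Blocking IL-4, IL-12 and IFN-γ keeps the cells from taking other helper fates. Because the cells are stimulated, they grow and divide as well as polarize.

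The levels of 5 Treg markers were read, and all 5 were expressed in every library. The minimum of 1 CPM was met by 49.8% of protein-coding genes, and the series holds no library of another T cell type. The presence of the 5 markers therefore does not test the Treg label. Foxp3 (chromosome X, 7573644 to 7595245, GRCm38) stood at 1009, 938, 922 and 902 CPM in replicates 1 to 4. Il2ra (chromosome 2, 11642807 to 11693193), which encodes the IL-2 receptor α chain, stood at 2948, 2413, 2447 and 2359 CPM. Ctla4 (chromosome 1, 60887000 to 60915832), an inhibitory receptor, gave 345, 392.3, 398 and 425 CPM. Replicate 1 was the highest library for Foxp3 and Il2ra and the lowest for Ctla4, and without it Il2ra lay between 2359 and 2447 CPM. Ikzf4 (chromosome 10, 128630843 to 128645991), encoding the Ikaros family factor Eos, gave 175, 186, 191 and 202 CPM. Tnfrsf18 (chromosome 4, 156026164 to 156028895), encoding the receptor GITR, gave 263, 274, 275 and 265 CPM. CPM does not correct for the length of a gene, so levels of different genes are compared per exon length, as transcripts per 1000000 (TPM). On that scale the order was Il2ra (1508 ± 148 TPM, SD, n = 4), Foxp3 (698 ± 27.4), Tnfrsf18 (599 ± 14.3), Ctla4 (568 ± 55.8) and Ikzf4 (107 ± 7.74). The 3 genes between 568 and 698 TPM lay close together: Tnfrsf18 and Ctla4 differed by less than the SD of Ctla4, while Foxp3 was above both by more than either SD. The median expressed gene stood at 26.0 TPM.

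Total counts ran from 32923433 in replicate 1 to 44644485 in replicate 2, so that 1 count was worth 0.0224 to 0.0304 CPM and 3 counts over all 4 libraries 0.0198 CPM. Replicate 1 stood apart from the others, and replicate 4 lay at the opposite end. Pairwise correlations of log2(CPM + 1) across the expressed genes were 0.993 to 0.999, lowest for replicates 1 and 4 and highest for replicates 2 and 3. The first principal component held 70.6% of the variance between libraries, with loadings of 0.83 for replicate 1, -0.20 for replicate 2, -0.11 for replicate 3 and -0.52 for replicate 4. No pair of libraries agreed within sampling noise, since the chi-square per degree of freedom was at least 3.08, so none was counted as a duplicate. The deviation of a library from the mean of the 4 also moved with transcript length across genes, with a Spearman correlation of -0.19 in replicate 1 and 0.34 in replicate 4. With GC content the largest such correlation was 0.25, in replicate 2. The part of length and GC content in the differences between replicates was not tested.

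Genes just above the minimum of 1 CPM included 9430041J12Rik and Mir6973a, each at 1.00 CPM. Genes just below it were Gm46404, Ak1 and 5830405F06Rik, at 0.997, 0.997 and 0.995 CPM. The minimum therefore separates no group of genes, and 351 of the expressed genes were under 1 CPM in at least 1 library. Of the expressed genes 8920 reached 10 CPM, 2543 reached 100 CPM and 78 reached 1000 CPM. Counts were spread over many genes. The 10 most abundant genes of each library took 4.76% ± 0.102 of its counts, the top 100 took 17.0% ± 0.295 and the top 1000 took 49.8% ± 0.309 (SD, n = 4).

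Ribosomal protein genes made up 50 of the 100 genes with the highest TPM. Eef1a1, which encodes the elongation factor that delivers transfer RNA to the ribosome, led the protein-coding genes at 15802 ± 249 TPM (SD, n = 4). After it came Rplp1 (11668 ± 456 TPM), a protein of the ribosomal stalk, and the mitochondrial gene mt-Co1 (7527 ± 979.7 TPM), a subunit of cytochrome c oxidase. Actb, the cytoplasmic β-actin, stood at 7248 ± 270.0 TPM, Rplp0 at 6809 ± 236 TPM and the elongation factor Eef2 at 6617 ± 296 TPM. Rps15 (5700 ± 136 TPM), B2m (5427 ± 247 TPM), the light chain of MHC class I, and Rpl4 (4870 ± 234 TPM) followed. The next genes in order were Rps4x, Tmsb4x, an actin-binding peptide, Rps2, Rpl8 and Rpsa, between 4347 and 3811 TPM. The genes that took the most counts, with no correction for length, were Eef1a1 (11621 CPM), Eef2 (6486), Actb (5729), Pkm (3779), Rpsa (3563), mt-Co1 (3426), Rplp0 (3334), Gapdh (3286), Hsp90ab1 (3240) and Ldha (3086). The highest TPM of all, 18268 ± 2681, belonged to Gm23935, annotated as a microRNA gene of 57 bases. Its count was modest at 308 CPM, it lies within the gene Zc3h7a on the other strand, and a poly(A) library does not measure a molecule of that size, so its TPM is not comparable with the others.

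Ribosomal protein genes were expressed in 84 of 87 cases. They took 7.71% ± 0.279 of the counts and 15.3% ± 0.400 of the TPM (SD, n = 4). Their median was 1381 TPM and their median coefficient of variation between replicates (CV, SD over mean) was 4.98%. The median over all expressed genes was 6.57%, but it was 4.65% between 300 and 1000 CPM and 4.15% from 1000 CPM. Ribosomal protein and elongation factor messages are known for a run of pyrimidines at the start of the transcript, the terminal oligopyrimidine tract through which mTOR signalling controls their translation. RefSeq start sites (GRCm38.p6) were matched for 63 of the 84 genes. A run of at least 6 C or T on the transcribed strand, overlapping the bases from 5 before to 15 after the start, was found in 46.0% of these 63. The same run was found in 16.7% of the 16503 protein-coding genes with a start site and in 16.8% of the 8732 expressed ones. It was found in 28.4% of those with a start site among the 100 highest by TPM and in 8 of the 25 Treg-associated genes with one. Such a match describes the letters and shows neither a used start nor a regulation. The 30 bases around the start are printed for 3 ribosomal protein genes, for Eef1a1 and for the markers Foxp3 and Il2ra, with the run in capitals, to show what was counted.
Rpl7a, chr2:26910792-26910821, plus strand: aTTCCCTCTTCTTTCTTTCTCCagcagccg
Rps15a, chr7:118116133-118116162, minus strand: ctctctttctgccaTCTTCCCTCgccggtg
Rpl28, chr7:4792950-4792979, plus strand: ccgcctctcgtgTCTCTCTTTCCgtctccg
Eef1a1, chr9:78481710-78481739, minus strand: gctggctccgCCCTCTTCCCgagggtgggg
Foxp3, chrX:7579661-7579690, plus strand: ttttgataatgtggcagTTTCCCacaagcc
Il2ra, chr2:11642777-11642806, plus strand: gaacagagtaggcacaagttcctgctgagc
The run of Rpl7a was the longest of these, that of Foxp3 just met the minimum, and Il2ra had none in the bases printed. Those bases of Il2ra all lie before the annotated gene, so its annotated start was not searched. RefSeq places the start of Foxp3 inside the annotated gene, so an upstream start was not searched. Whether the RefSeq start of Eef1a1 is the used one was not tested, so its run was not shown to be a terminal oligopyrimidine tract. Rpl7a was present at 2442 ± 69.4 TPM, Rps15a at 508 ± 17.8 TPM and Rpl28 at 1628 ± 72.5 TPM, so the 3 sequences belong to genes of unlike level.

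**Figure D1:**
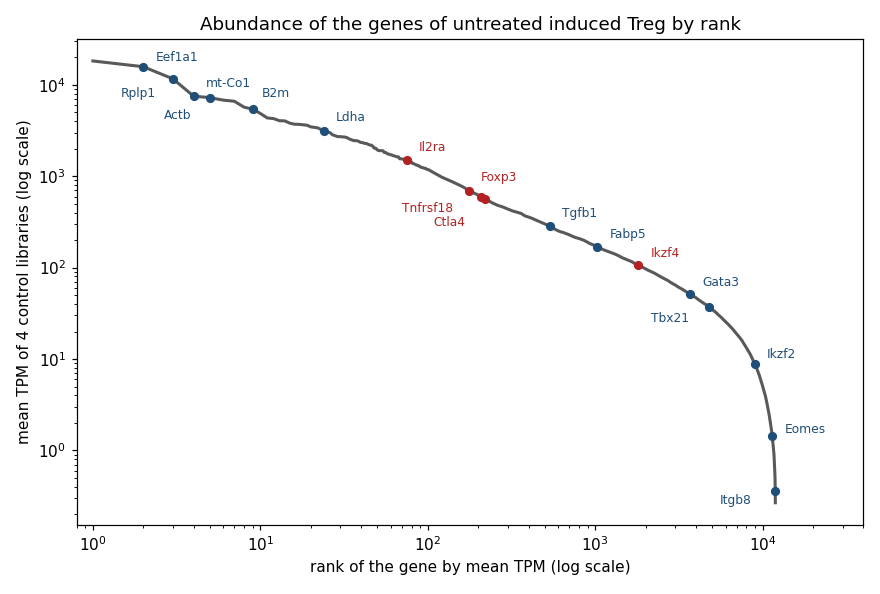
Mean TPM of the 4 control libraries (vertical, log scale) against the rank of each expressed gene by TPM (horizontal, log scale), with the 5 Treg markers in red and other genes in blue. Il2ra, Foxp3, Tnfrsf18 and Ctla4 lie between 1508 and 568 TPM, Ikzf4 lies at 107 TPM, and Ikzf2 lies far lower at 8.86 TPM.

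The promoters of expressed and unexpressed genes differed in base content. Windows from 250 bases before to 50 after the RefSeq start held a median of 21 CpG dinucleotides in the 8732 expressed protein-coding genes and 4 in the 7771 others, against 14 over all. The motif TATAAA beginning 15 to 45 bases before the start, on the transcribed strand, was found in 0.973% of the expressed genes, 5.07% of the others and 2.90% of all. Among the 25 Treg-associated genes with a window the median was 8 CpG. By chromosome, the share of protein-coding genes that were expressed ran from 36.7% on the X chromosome (348 of 948) to 59.1% on chromosome 12 (380 of 643) among the autosomes and the X. It was 5 of 183 on the Y chromosome, 8 of 13 on the mitochondrial genome and 0 of 12 on an unplaced scaffold.

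Of the 38 genes of the Treg-associated list 34 reached 1 CPM, against 49.8% of all protein-coding genes. Of the list, 16 genes reached 100 CPM and 10 were among the 1000 highest TPM values. Other T cell lists reached 1 CPM in 35 of 35 (T cell receptor), 30 of 30 (costimulatory) and 32 of 33 cases (helper and naive factors). Expression of most of a list was therefore not particular to Treg-associated genes. After Il2ra the highest were Capg, an actin-capping protein, at 1225 ± 57.9 TPM and Tnfrsf4, the costimulatory receptor OX40, at 804 ± 31.9 TPM. Tnfrsf4 gave 320.2, 342, 329 and 304 CPM in replicates 1 to 4, and its 4 libraries lay within 1.13-fold of each other. Izumo1r, encoding folate receptor 4, stood at 535 ± 28.4 TPM and Tnfrsf9, the costimulatory receptor 4-1BB, at 369.7 ± 20.9 TPM. The TGF-β gene Tgfb1 stood at 283 ± 12.2 TPM, and Lrrc32, whose product GARP tethers latent TGF-β to the cell surface, at 136 ± 6.24 TPM. The ectonucleotidases, which turn extracellular ATP into adenosine, were unequal: Nt5e (CD73) stood at 192 ± 9.20 TPM and Entpd1 (CD39) at 25.6 ± 2.10 TPM.

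2 genes used to tell thymus-derived Tregs from induced ones differed in level. Ikzf2, encoding Helios, gave 25.8, 27.4, 30.4 and 37.5 CPM and stood at 8.86 ± 1.67 TPM, and Nrp1, encoding neuropilin-1, gave 147, 159, 145 and 161 CPM and stood at 53.1 ± 3.35 TPM. Each of the 4 genes of the list that missed the minimum was detected at a low level. Il10, an inhibitory cytokine, gave 1.25, 0.582, 0.709 and 0.625 CPM, above the minimum in replicate 1 alone. Areg, a tissue repair factor, stood at 0.599 CPM, Il12a, the p35 chain of IL-35, at 0.172 CPM, and Klrg1 at 0.0398 CPM with 6 counts in all. Ebi3, the other chain of IL-35, stood at 12.5 ± 1.52 CPM. The 34 expressed genes had a median CV of 8.36%, against 6.57% over all expressed genes. Gpr83, an orphan receptor, was the most variable of those above 10 CPM: it gave 126, 78.5, 79.3 and 66.6 CPM, with replicate 1 well above the other 3. Socs1, an inhibitor of cytokine signalling, had the same shape at 174, 125, 121 and 108 CPM.

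**Figure D2:**
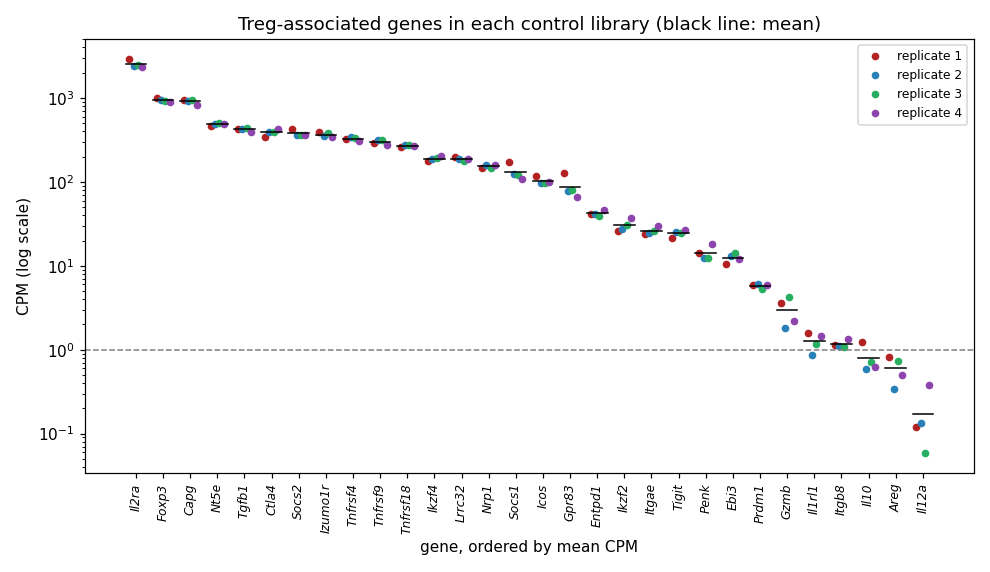
CPM (log scale) of 30 Treg-associated genes in each of the 4 control libraries, 1 colour per replicate, with black lines at the means and a dashed line at the minimum of 1 CPM. The 4 libraries lie close together for most genes above 100 CPM, while Gpr83 and Socs1 are highest in replicate 1, and Il10, Areg and Il12a have means below the dashed line.

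All 35 genes of the T cell receptor complex and its proximal signalling were expressed, with a median CV of 3.87%. The highest were Cd2, an adhesion molecule of T cells, at 1144 ± 36.7 TPM, the kinase Lck at 806 ± 35.9 TPM and the adaptor Lat at 566 ± 5.51 TPM. Lat gave 463, 464, 463 and 458 CPM, 4 nearly equal values. Cd4 gave 529, 619.6, 586 and 642 CPM, lowest in replicate 1, and stood at 500.0 ± 47.1 TPM. The CD3 chains Cd3d, Cd3e and Cd3g stood at 412, 217 and 212 TPM. The constant region Trac gave 489, 508, 511 and 500.1 CPM, and Trbc2 (1539 ± 33.5 TPM) exceeded Trbc1 (773 ± 23.0 TPM). Of the variable segments, 19 of 22 Trbv and 35 of 108 Trav segments reached 1 CPM. Trbv3 took 13.2% ± 0.377 of the counts of all Trbv segments, Trbv19 11.8% ± 1.30, Trbv13-2 10.1% ± 0.579, Trbv1 8.19% ± 0.514 and Trbv2 6.87% ± 0.748 (SD, n = 4), together 50.1%. The 5 most used Trav segments, Trav14n-3, Trav9-4, Trav14-2, Trav14d-3-dv8 and Trav13-1, took 21.7% of the Trav counts. The shares recurred in every library, with a correlation across segments of at least 0.978 between any pair for each chain. Trav segments of the duplicated locus are near copies of each other, so their single shares are uncertain.

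Among transcription factors of helper lineages and naive T cells, 32 of 33 genes were expressed. Their median was 53.7 TPM. The 3 highest known from naive or resting T cells were Klf2 at 477 ± 30.6 TPM, Tcf7 at 404 ± 54.7 TPM and Ets1 at 362 ± 26.5 TPM, while Foxo1 and Satb1, also known from naive T cells, stood at 96.6 and 11.3 TPM. Of factors known to be induced by stimulation, Irf4 stood at 420.3 ± 30.02 TPM, Myc at 390.2 ± 49.7 TPM and Bhlhe40 at 314 ± 22.5 TPM. Factors that define other helper fates were present at lower levels. Gata3, of Th2 cells, stood at 51.4 ± 7.23 TPM, Tbx21, which encodes T-bet of Th1 cells, at 37.0 ± 12.4 TPM, and Bcl6, of follicular helper cells, at 12.6 ± 1.39 TPM. Each lay below Foxp3 by more than the SD of either gene. Tbx21 gave 41.2, 22.7, 21.7 and 23.1 CPM, with replicate 1 far above the other 3 libraries, which lay close together. Gata3 was lowest in replicate 1, with 49.8, 64.8, 59.1 and 67.4 CPM. Eomes, a factor of cytotoxic cells, stood at 1.43 ± 0.545 TPM, and Zbtb16, of innate-like T cells, missed the minimum at 0.277 CPM.

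Of 39 cytokine and chemokine genes, 22 were expressed. Ltb and Lta, the chains of lymphotoxin, led at 912 ± 101 and 577 ± 194 TPM, followed by Tgfb1 (283 ± 12.2 TPM), the chemokine Xcl1 (143 ± 18.3 TPM) and Tnfsf11, which encodes RANK ligand (123 ± 8.64 TPM). The chemokine Ccl4 (104 ± 30.3 TPM), Lif, of the IL-6 family (97.6 ± 41.1 TPM), and Tnf (95.8 ± 8.60 TPM) came next. The cytokines that mark effector helper cells were low or near 0. Ifng gave 7.93, 3.02, 2.83 and 2.85 CPM, and Il17f stood at 1.70 ± 0.791 CPM. Il4 stood at 0.186 CPM, Il13 at 0.464 CPM, Il17a at 0.0566 CPM and Il5 at 0.0257 CPM. Il2 had 3 counts over the 4 libraries (0.0206 CPM), Il21 had 2, Il22 had 1 and Il6 had none. A count of 0 in all 4 libraries allows up to 0.0198 CPM, for counting error only.

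Of the lists of function, the cytokines varied most between replicates, with a median CV of 19.4% over the 22 expressed genes. Only 13 of the 22 reached 10 CPM. Among all expressed genes the median CV was 16.3% between 1 and 3 CPM and 10.6% between 3 and 10 CPM. The part of low abundance in the spread of the cytokines was not tested. Replicate 1 was the highest library for 16 of the 22, against 32.9% of all expressed genes, and the lowest for 4, against 42.0%. Lif gave 207, 106, 97.0 and 93.2 CPM, and Lta gave 358, 198, 207 and 182 CPM. Ccl3, a chemokine, gave 21.8, 10.3, 9.42 and 8.27 CPM, and Osm, of the IL-6 family, gave 74.9, 48.5, 43.4 and 40.6 CPM. In each of these 4 genes replicate 1 lay above the other 3, which were close together. Lif, Lta and Ccl3 were named for their high CV in these same libraries, so they illustrate the pattern and do not support it. The mean deviation of the list from the 4-library mean, in log2(CPM + 1), was 0.31 in replicate 1, -0.06 in replicate 2, -0.09 in replicate 3 and -0.16 in replicate 4. Over all expressed genes the same means lay between -0.02 and 0.01. Without replicate 1 the median CV of the cytokines was 8.01% and that of all expressed genes 4.50%. Interferon-response genes, of which 27 of 30 were expressed, had the next largest mean deviation among these lists, 0.16 in replicate 1 and -0.13 in replicate 2. In replicate 1 the mean deviation was also 0.25 over 4 expressed NK cell markers of 8, with Prf1, encoding perforin, at 6.53, 5.13, 5.34 and 3.67 CPM. For γδ and NKT cells the mean deviation there was 0.28 over 2 expressed markers of 5, of which 1 was highest in replicate 1 and 1 in replicate 2. The marker lists of the other cell types deviated in replicate 1 by -0.30 (erythroid cells and platelets) to 0.04 (monocytes, macrophages and neutrophils). The summed CPM of the NK list ran from 83.9 to 97.1 and of the γδ and NKT list from 7.82 to 12.9, both highest in replicate 1, and their part in the cytokine values was not tested. Igtp, an interferon-induced GTPase, stood at 833 ± 105 TPM, and Gbp2, a guanylate-binding protein, gave 456, 354, 319.9 and 338 CPM. The antiviral genes Mx1 (2.78 ± 0.502 CPM) and Rsad2 (0.736 ± 0.246 CPM) were near the minimum, and the immunoproteasome subunit Psmb8 (531 ± 23.4 TPM) and the peptide transporter Tap1 (332 ± 14.9 TPM) stood well above it.

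**Figure D3:**
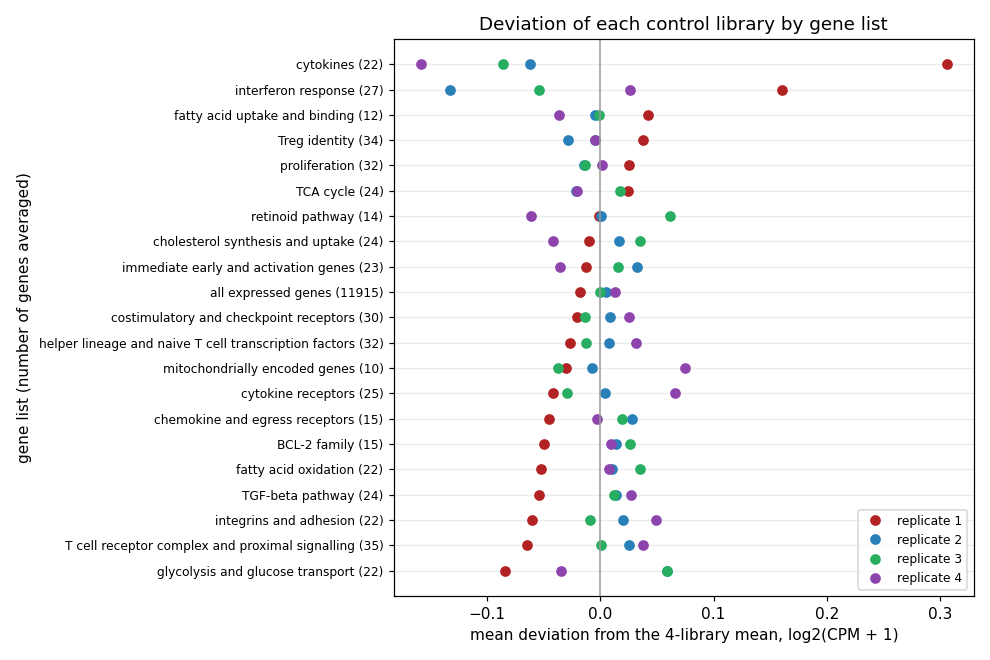
Mean deviation of each control library from the 4-library mean, in log2(CPM + 1) (horizontal), for 20 gene lists and for all expressed genes (vertical, number of genes averaged in parentheses), 1 colour per replicate. Cytokines (0.31) and interferon-response genes (0.16) lie furthest to the right in replicate 1, while the points of all expressed genes lie between -0.02 and 0.01.

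Receptors for cytokines were expressed in 25 of 29 cases. The β and γ chains that complete the IL-2 receptor stood at 710.0 ± 25.7 TPM (Il2rb) and 366 ± 7.40 TPM (Il2rg), both below Il2ra. Il21r (195 ± 11.0 TPM), Ifngr1 (190.3 ± 15.3 TPM), Il4ra (149.9 ± 8.31 TPM) and Il18r1 (147 ± 10.0 TPM) were abundant, and Il6ra stood at 77.6 ± 3.17 TPM. Il7r, the survival receptor of naive and memory T cells, gave 16.8, 24.9, 23.4 and 34.9 CPM, lowest in replicate 1 and highest in replicate 4. Il23r and Osmr each had 1 count over the 4 libraries. Of the TGF-β pathway 24 of 26 genes were expressed. The receptor Tgfbr1 stood at 149 ± 7.49 TPM and Tgfbr2 at 62.1 ± 5.12 TPM. Of the SMADs that carry the signal, the shared Smad4 stood at 78.2 ± 3.86 TPM, Smad3 at 23.6 ± 0.403 TPM and Smad2 at 16.6 ± 0.565 TPM. The inhibitors of the pathway were more abundant than these 2 receptor SMADs, with Ski at 224 ± 11.4 TPM, Pmepa1 at 128 ± 2.27 TPM, Skil at 99.6 ± 6.93 TPM and Smad7 at 57.0 ± 2.74 TPM. The summed level of the list was nearly the same in each library, at 2859, 2885, 2897 and 2892 CPM.

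Receptors that guide migration were expressed in 15 of 24 cases. Ccr7, which directs T cells to lymph nodes, led at 708 ± 125 TPM and gave 318, 431, 422 and 479 CPM, lowest in replicate 1. Ccr8 followed at 489.7 ± 27.2 TPM, Cxcr4 at 152 ± 16.6 TPM, S1pr4 at 144 ± 11.0 TPM, S1pr1, which lets T cells leave lymph nodes, at 137 ± 17.2 TPM, Ccr4 at 126 ± 6.71 TPM and Ccr6 at 84.4 ± 13.3 TPM. From Cxcr4 to Ccr4, neighbours in this order differed by less than the larger of their SDs. The gut homing receptor Ccr9 missed the minimum at 0.109 CPM, and Gpr15, which directs T cells to the colon, stood at 10.1 ± 0.764 TPM. Of integrins and other adhesion genes 22 of 29 were expressed. Itgb2 (805 ± 63.1 TPM) and its partner Itgal (245 ± 11.1 TPM) form LFA-1, and Itgb7 (444 ± 32.2 TPM) was far above its partners Itga4 (17.9 ± 4.74 TPM) and Itgae (19.4 ± 2.39 TPM). Itga4 gave 52.5, 78.1, 68.0 and 96.4 CPM, again lowest in replicate 1. Cd44, an activation marker, stood at 119 ± 8.79 TPM. All 30 costimulatory and checkpoint receptors were expressed. Pdcd1, encoding PD-1, stood at 183 ± 9.47 TPM, Tnfrsf1b, the TNF receptor of Tregs, at 202 ± 13.4 TPM, Cd28 at 129.6 ± 19.1 TPM, Lag3 at 28.1 ± 3.36 TPM and Havcr2, encoding TIM-3, at 1.32 ± 0.865 TPM. Havcr2 reached the minimum only through replicate 1, with 2.13, 0.739, 0.650 and 0.750 CPM.

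The cells carried the transcripts of stimulation and division. All 23 immediate early and activation genes were expressed, led by Jund (866 ± 36.0 TPM) and Junb (775 ± 33.4 TPM). The other AP-1 partner Fos stood at 13.8 ± 1.70 TPM and Fosb at 1.83 ± 0.232 TPM. Nr4a1, which follows T cell receptor signals, gave 246, 288, 298 and 313 CPM. All 32 proliferation genes were expressed above 10 CPM, 27 of them above 100 CPM, with a median of 166 TPM and a median CV of 4.12%. Pcna, the clamp of DNA replication, stood at 629 ± 43.9 TPM, Top2a, a topoisomerase of dividing cells, at 517 ± 21.7 TPM, and Mki67, encoding Ki-67, at 362 ± 46.3 TPM. Mki67 gave 951, 1056, 1045 and 1239 CPM, lowest in replicate 1 and highest in replicate 4, while Pcna had the reverse order of these 2 libraries at 495, 428, 446 and 413 CPM. Of 67 protein-coding histone genes with a symbol starting in Hist, 18 were expressed, and the 67 together took 0.00647% of counts. Histone genes with other symbols, such as H3f3a at 211 CPM, were not in this set. Replication-dependent histone messages carry no poly(A) tail, and the libraries were poly(A) selected.

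Of the metabolic lists, glycolysis held the most counts: all 22 genes were expressed, with a median of 318 TPM, 13 were among the 1000 highest TPM values, and together they held 22419 ± 1251 CPM. Ldha, which makes lactate from pyruvate, gave 3148, 3130, 3223 and 2842 CPM and stood at 3159 ± 131 TPM. Aldoa (2778 ± 260.0 TPM), Gapdh (2695 ± 152 TPM) and Pkm (2561 ± 136 TPM) were nearly as high. The list was lower in replicates 1 and 4, at 21629 and 21082 CPM, than in replicates 2 and 3, at 23381 and 23585 CPM. The TCA cycle was complete, with 24 of 24 genes expressed at a median of 95.9 TPM and a median CV of 3.31%. Citrate synthase, Cs, which opens the cycle, stood at 193 ± 6.41 TPM. In cholesterol synthesis and uptake 24 of 25 genes were expressed. Hmgcs1 (372 ± 18.4 TPM) and Cyp51 (320.4 ± 15.1 TPM) led the enzymes, and the regulator Srebf2 stood at 323 ± 11.8 TPM.

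Genes of fatty acid uptake and binding were expressed in 12 of 23 cases. Fabp5, the epidermal fatty acid-binding protein, gave 205, 169.8, 181 and 153 CPM and stood at 168 ± 18.7 TPM. It was the only one of the 8 family members above the minimum: Fabp7 had 1 count, and Fabp3 and Fabp4 had none. The fatty acid translocase Cd36 missed the minimum at 0.887 CPM, while Acsl5, which activates long-chain fatty acids, stood at 218 ± 14.2 TPM. Of fatty acid oxidation 22 of 26 genes were expressed. Cpt1a, the rate-limiting carrier enzyme, gave 63.2, 73.3, 74.8 and 83.6 CPM and stood at 32.8 ± 4.19 TPM, and Acaa2, the last enzyme of the spiral, stood at 189.9 ± 7.65 TPM. The coactivator Ppargc1a had 4 counts and Ppara had 2. Of the retinoid pathway 14 of 23 genes were expressed, with the receptors Rara and Rxrb at 90.9 ± 4.93 and 90.2 ± 4.43 TPM. Aldh1a2, which makes retinoic acid, stood at 7.23 ± 1.21 TPM, and Cyp26a1, which degrades it, was under the minimum at 0.290 CPM.

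Of the 15 mitochondrial genes for proteins and ribosomal RNA, 10 were expressed. All 37 genes of the mitochondrial genome together took 0.639%, 0.704%, 0.700% and 0.781% of counts in replicates 1 to 4, with replicate 1 lowest and replicate 4 highest. The same libraries were lowest and highest for mt-Co1, at 2950, 3415, 3421 and 3918 CPM. Next to it on the mitochondrial genome a block of 6 protein-coding genes was nearly empty, from mt-Co2 (7013 to 7696) to mt-Nd4l (9877 to 10173). In it mt-Co2 stood at 0.712 CPM, mt-Atp8 at 0.111, mt-Atp6 at 0.538, mt-Co3 at 1.01, mt-Nd3 at 0.870 and mt-Nd4l at 0.0507. The gene after the block, mt-Nd4, gave 278, 307, 318 and 349.8 CPM. Unprocessed pseudogenes on chromosome 1 are copies of this stretch, and they were as low, with Gm28437 highest at 0.792 CPM. The treatment of reads with several matches by the authors is not given in the labels or notes used here, so the levels of these 6 genes and the mitochondrial share are uncertain.

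Survival and death genes of the BCL-2 family were expressed in 15 of 18 cases. Mcl1, which protects activated T cells, led at 357 ± 4.32 TPM and gave 369, 363, 356 and 352 CPM. The killers Bak1 (196 ± 7.60 TPM) and Bax (156 ± 5.00 TPM) were above Bcl2 (88.7 ± 3.39 TPM) per length, though Bcl2 took more counts, 239.7 CPM against 139 and 72.5 CPM, so this order depends on exon length. The trigger protein gene Bcl2l11, encoding BIM, stood at 23.2 ± 3.45 TPM. Sex-linked genes had 1 pattern in all libraries. Eif2s3y, Ddx3y, Kdm5d and Uty, of the Y chromosome, stood at 104, 79.0, 49.2 and 34.1 CPM with CVs of at most 9.06%, while Xist, which silences an X chromosome in female cells, had 1 count in each library.

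In 37 families of isozymes or related proteins, the share of the family's summed TPM was used to ask which gene leads. The same gene led in every library in 35 of them, and 11 leaders held over 90% of their family. Ldha held 99.4% ± 0.0642 of lactate dehydrogenase, Tgfb1 99.2% ± 0.194 of the TGF-β ligands, Cpt1a 97.4% ± 0.534 of carnitine palmitoyltransferase 1, Aldoa 96.0% ± 0.241 of aldolase and Cdk4 93.3% ± 0.460 of the G1 cyclin-dependent kinases (SD, n = 4). In these families a single gene stood for nearly all of the transcript. Foxp3 held 77.8% ± 1.33 of the FOXP family, ahead of Foxp4, and Slc2a1 (GLUT1) held 74.2% ± 2.93 of the glucose transporters, ahead of Slc2a3. Hk1 held 65.9% ± 0.995 of hexokinase and Hk2 33.1% ± 1.12. The leader held under 60% in 13 families. Ikzf1 held 57.1% ± 0.747 of the Ikaros family and Ikzf4 23.3% of it. Ccnd2 held 58.8% ± 1.19 of the D-type cyclins and Ccnd3 41.1%, but Ccnd3 led when the longest transcript was used as the length. Runx3 led Runx1 by TPM (56.5 against 40.1 TPM) but had fewer counts, 83.4 against 142 CPM, so this order depends on exon length. The leader also changed by CPM in the receptor SMAD, STAT, NFAT, NF-κB and Krüppel-like families, and by longest transcript in the STAT, RUNX, NFAT, NF-κB and Cip/Kip families. In the 2 families without a fixed leader by TPM, Stat6 (248 ± 8.67 TPM) and Stat5b (247 ± 18.2 TPM) differed by less than their SD, as did Cdkn1b (149.7 ± 16.3 TPM) and Cdkn1a (140.1 ± 10.9 TPM). Stat3 (211 ± 6.81 TPM) took more counts than either, 593 CPM, and led its family by CPM and by longest transcript.

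**Figure D4:**
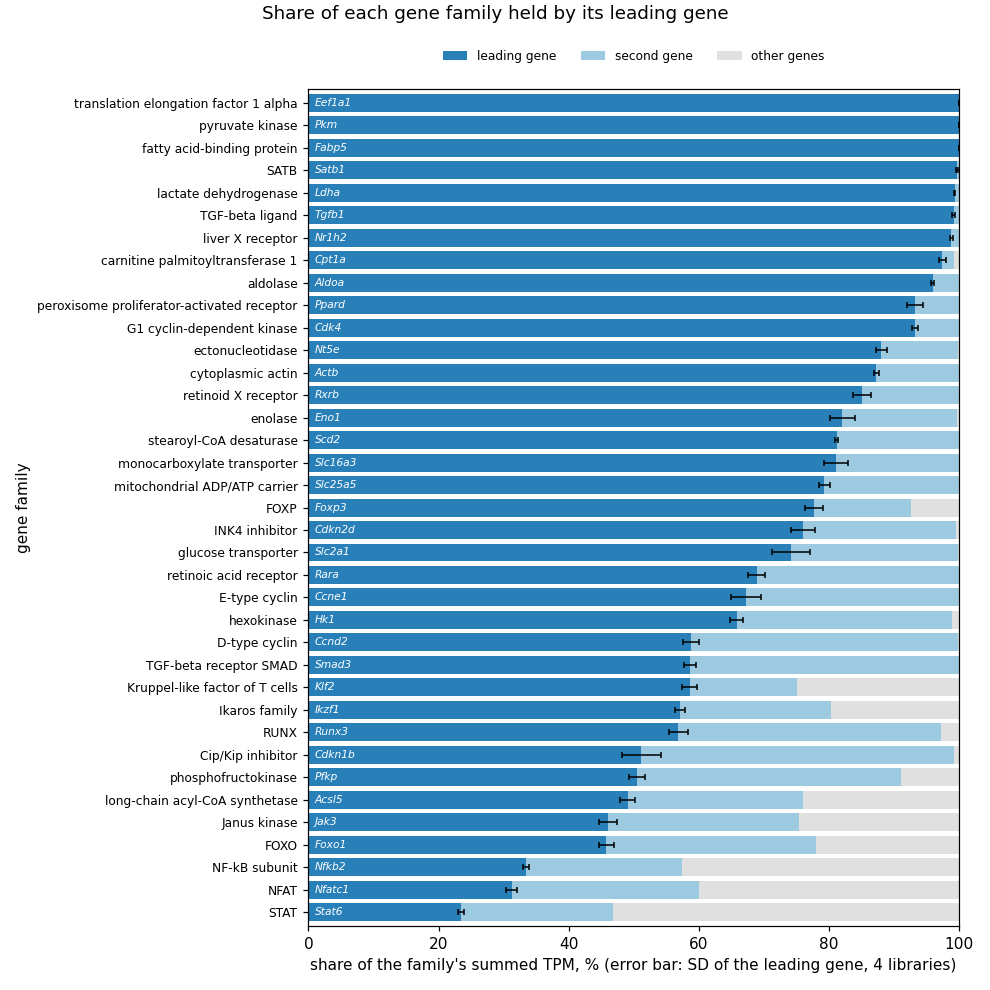
Share of each of 37 gene families' summed TPM (horizontal, %) held by its leading gene (dark, named), its second gene (light) and the others (grey), with the SD of the leading gene's share over 4 libraries. Shares run from nearly the whole family for Eef1a1 and Pkm to 23.5% for Stat6 among the 7 STAT genes, whose leader was Stat3 by CPM and by longest transcript.

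The spread between replicates was small for most genes. The median CV was 6.57%, and 34.9% of the expressed genes had a CV under 5%, while 6.12% of them (729) had one over 20%. The median fell with abundance from 16.3% between 1 and 3 CPM, where counting alone gives 12.6%, to 4.15% from 1000 CPM, where counting gives 0.441%. The median CV thus lay above the counting value in both classes, not far above it for low genes and far above it for high genes. The edgeR biological coefficient of variation, the spread beyond counting, was 7.35%, and it was 4.39% without replicate 1, which is a change of more than 1.5 times. It was 8.72%, 8.77% and 6.97% without replicates 2, 3 and 4.

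Among the 8920 genes at 10 CPM or more, 105 (1.18%) had a CV over 20%, and only 10 of the 8920 exceeded 20% when replicate 1 was left out. A difference of at least 1.5-fold between the highest and lowest library was seen in 181 genes, and in 7 among replicates 2 to 4 alone. Without replicate 4 that count was 76, and the count of genes with a CV over 20% was 205 without replicate 2 and 202 without replicate 3. Replicate 1 was the highest library for 55 of the 105 variable genes and the lowest for 46. It was the highest for 32.9% of all expressed genes and the lowest for 42.0%. Of the 15 named genes with the highest CV it was the highest for 14, among them Ccl3, Nlrp6, an inflammasome sensor (28.8, 16.6, 12.05 and 11.1 CPM), Lif, Lta and Tbx21. Srm, which encodes spermidine synthase, gave 116, 73.1, 71.4 and 61.0 CPM, and the interferon-induced Ifitm3 gave 58.5, 36.4, 34.4 and 32.2 CPM. The same group held the aldo-keto reductase genes Akr1c18 (49.5, 33.5, 31.9 and 21.7 CPM) and Akr1c13 (16.9, 11.6, 10.7 and 8.80 CPM). Genes that were low in replicate 1 included Ahnak, a very large scaffold protein, at 202, 294, 298 and 373 CPM, and Malat1, a nuclear long noncoding RNA, at 72.2, 108, 116 and 151 CPM. The fifteenth gene, Il7r, was low in replicate 1 as well. At the other end, Ctsw, a cysteine protease of lymphocytes, gave 263, 263, 263 and 263 CPM, and the spermidine acetyltransferase Sat1 gave 104, 104, 104 and 104 CPM. The 10 lowest CVs, also those of Coq10b, Rnf10, Rhbdd2, Wdr33, Pabpc1, Kctd7, Mfsd1 and Dis3l2, were at most 0.448%, and all 10 lay below what counting alone gives, so their order carries no information. Pabpc1, the poly(A)-binding protein, was the most abundant of them at 1947, 1935, 1936 and 1931 CPM.

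**Figure D5:**
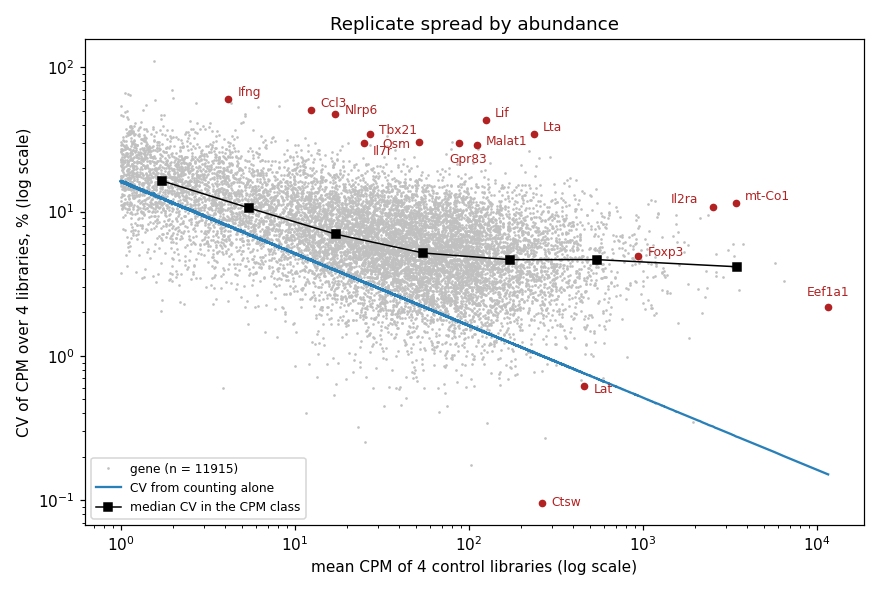
CV of CPM over the 4 control libraries (vertical, %, log scale) against mean CPM (horizontal, log scale) for all 11915 expressed genes (grey), with the CV that counting alone gives (blue line), the median CV in each CPM class (black squares) and genes named in the text (red). Ccl3, Nlrp6, Lif and Lta lie far above the median of their class, and Ctsw lies far below the blue line.

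Markers of other cell types were measured to see what else the cultures held. Cd4 stood at 500.0 ± 47.1 TPM, against 3.87 ± 1.15 TPM for Cd8a and 16.3 ± 1.80 TPM for Cd8b1. Replicate 3 was the highest library for both CD8 genes, for 4 of the 6 expressed B cell markers and for all 3 expressed markers of monocytes, macrophages and neutrophils, with mean deviations of 0.32, 0.19 and 0.20. It was the highest library for 15.9% of all expressed genes. Of 10 B cell markers 6 were expressed, but Cd79a and Cd79b stood at 1.95 and 2.09 CPM and Ms4a1 at 0.686 CPM. The exception was Ighm, the constant region of IgM, at 330.3, 386, 360.0 and 429 CPM. The summed level of the B cell list was 341 to 439 CPM, nearly all of it Ighm, whose order over the libraries did not follow Cd79a (1.73, 1.90, 2.57 and 1.60 CPM). Of 12 markers of monocytes, macrophages and neutrophils 3 were expressed, their sum was 5.87 to 8.30 CPM, and Csf1r and Cd14 stood at 0.116 and 0.140 CPM. Of 7 dendritic cell markers only Zbtb46 was expressed (3.57 ± 0.256 CPM). NK cell markers were expressed in 4 of 8 cases, led by Nkg7, a granule protein also made by T cells, at 75.4 ± 5.13 CPM, while Ncr1, which defines NK cells, had no count. Of 10 markers of red cells and platelets 1 was expressed and 4 had no count, among them Hbb-bs and Ppbp. The sum of these 10 was 1.82 to 2.95 CPM. Of 5 mast cell markers 1 was expressed and 4, among them Cpa3, had no count. Of 8 markers of stroma and endothelium 3 were expressed, 2 of them at 10 CPM or more, with a sum of 124 to 135 CPM. Pecam1, found on endothelium and on leukocytes, stood at 117 ± 5.34 CPM, whereas the endothelial Cdh5 and the fibroblast gene Col3a1 had no count. The part of other cell types in the values above was not tested.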

How the data were processed

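RNA was sequenced from poly(A)-selected, stranded libraries on an Illumina HiSeq, per the labels. The authors deposited whole-number read counts per Ensembl gene for each library, and the submitters' processing notes name STAR, featureCounts, DESeq2, deepTools and the GRCm38 build. Versions, the strand setting and the handling of reads with several matches are not given in the sources used here, so near-identical copies and antisense or overlapping genes are uncertain. From the counts were computed CPM (library totals), TPM (merged exon length, GENCODE M21), SD and CV over the 4 control libraries, and the biological coefficient of variation (edgeR 4.0.16, TMM, intercept only). Other tools were R 4.3.3, DESeq2 1.42.0 for size factors, Python 3.11.15, pandas 2.3.3 and scipy 1.17.1. The spread estimate was tested on simulated data. Symbols matched 53360 of 53465 IDs, and the other 105 held 0.00603% of counts. Ribosomal protein genes were taken by symbol, leaving out kinases and pseudogenes.

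A single group is described, so no test between groups was made. Counting error is smallest for deep libraries, and 1 count was worth 0.0224 to 0.0304 CPM. The members and gene lists were chosen with earlier results of these data known. Named genes were the 5 markers, the 15 highest by TPM and 10 by CPM, up to 8 highest and 4 lowest expressed genes of each list by TPM with defining genes near 0, the 2 leading genes of each family, the 15 highest and 10 lowest CVs from 10 CPM, the 3 genes either side of 1 CPM, and the 5 most used segments of each chain. Outside this rule, chosen after their values were seen, are Ahnak, Bcl2l11, Bcl6, Cd3e, Cd3g, Ebi3, Gata3, Gm28437, Gpr15, Ifng, Il6ra, Itga4, Itgae, Lag3, Malat1, Nrp1, Rpl28, Rpl7a, Rps15a, Smad7, Socs1, Stat3, Tgfbr2, Trac, Trbc1, Trbc2 and Zc3h7a, together with the long noncoding genes, Iigp1 and Sema7a. A few genes that the rule names are not reported here.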

Additional observations from a re-analysis of the deposited data

Results flagged for a closer look

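In groups of 4 libraries a value was taken as outlying when the gap between the highest or lowest library and its neighbour as a share of the group's range (Dixon's ratio) exceeded the 95% critical value. Chance flags about 1 in 20 groups, and 780 of the 11915 expressed genes (6.55%) had an outlying library, which was replicate 1 in 514 cases (65.9%), replicate 4 in 159, replicate 3 in 62 and replicate 2 in 45.

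Of 211 expressed genes named in the text, 18 had such a library. Replicate 1 was outlying on the high side for Myc (ratio 0.871) and Il2ra (0.851). Myc, for example, gave 377, 296, 296 and 284 CPM. The same held for Ifng (0.963) and Iigp1 (0.878), which were named after their values were seen, so their ratios support nothing. Replicate 1 was also high for Tbx21 (0.929), Lif (0.889), Lta (0.860), Ccl3 (0.848) and Ifitm3 (0.839), which were named for their high CV, so their ratios support nothing. Havcr2 (0.932) and mt-Co3 (0.875) reached 1 CPM only through replicate 1, so that a high replicate 1 follows from the filter. Replicate 1 was outlying on the low side for Smad4 (0.923), at 80.4 against 87.0 to 87.6 CPM, for Hmgcs1 (0.900) and for Stat3 (0.848). Stat3 was also named after its values were seen, so its ratio supports nothing. Replicate 4 was the outlying low library for Slc2a1 (0.952), Rplp1 (0.887) and Lat (0.8293). Slc2a1 gave 316 CPM there and 348 to 349.5 CPM elsewhere, so these gaps were small beside those of the cytokines. In replicate 2 Runx1 was outlying on the high side (0.904). Among the shares of counts, those of ribosomal protein genes (0.882) and of histone genes with a Hist symbol (0.952) were lowest in replicate 4, at 7.30% and 0.00586% of counts.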

How the results depend on the processing

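No paired analysis was possible because a single group is described and no test between groups was made. The number of expressed genes stayed within 1.5 times of 11915 under every alternative: TMM and DESeq2 scaling gave 11915, a minimum of 0.5 or 2 CPM gave 13022 or 10996, 1 CPM in every library gave 11564, 1 TPM gave 13359, and leaving out 1 library gave 11890 to 11913. The share of the 100 most abundant genes was 16.9% to 17.1% with 1 library left out. The same gene led 35 families with any library left out, 37 by CPM and 36 by longest transcript, although the leader itself differed in 6 families under each of these 2 measures. The spread depended on the libraries and on low genes. The median CV was 6.57%, 4.50% to 7.14% with 1 library left out, and 20.6% over every gene with a count. The biological coefficient of variation ran from 4.39% to 8.77% with 1 library left out. Genes at 10 CPM or more with a CV over 20% numbered 10 to 205, and those with at least 1.5-fold between libraries 7 to 175, with 1 library left out, an alternative chosen after seeing the data, as was the median CV of a gene list without replicate 1. In each of these 4 measures the lowest value was without replicate 1, and the cause was not tested. Among the named genes the CPM of Il12a, Il17a, Klrg1, Ppara and Ppargc1a, with few counts, moved by over 1.5 times without replicate 3 (Il17a) or replicate 4 (the others). Genes with 1 or 2 counts in 1 library (Il21, Il22, Il23r, Osmr and Fabp7) fell to 0 without it. TMM moved no library's scale by more than 1.07%. Counting error limits the lowest genes most. Levels between genes also rest on the exon lengths used.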

Other observations

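Long noncoding and related transcripts made up 471 of the expressed genes, pseudogenes 318 and T cell receptor variable segments 55. Gm42418, annotated as a long noncoding gene, gave 1045, 1378, 1130 and 1180 CPM and stood at 2192 TPM. Which RNA its reads come from was not tested. Mir142hg, the host transcript of a blood cell microRNA, stood at 330.3 TPM, AW112010 at 323 TPM, Gas5, a host of small nucleolar RNAs, at 249 TPM and Zfas1, another such host, at 127 TPM. H19, an imprinted transcript, gave 26.3, 17.7, 17.2 and 13.7 CPM, highest in replicate 1.

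Scd2 and Scd1, the desaturases that make monounsaturated fatty acids, stood at 1626 and 375 TPM, and Scd2 held 81.3% ± 0.220 of its family. Iigp1, an interferon-induced GTPase, gave 308, 191, 187 and 202 CPM, and Sema7a, a semaphorin of activated T cells, gave 158, 104, 98.9 and 90.4 CPM. Both were highest in replicate 1 by over 1.5 times the next library. The mast cell receptor gene Kit stood at 11.99 CPM while the other 4 mast cell markers had no count.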
